A study of Mus musculus with 4 samples.

Results

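The 8 genes Atrx, Dcx, Fmr1, Ogt, Huwe1, Iqsec2, Phf6 and Pcdh19 lie on the mouse X chromosome, and changes in their human counterparts are known from disorders of brain development. They were taken by name from the RNA-seq tables, where all 8 stood among 46320 gene identifiers, 2607 of them X-linked. The study read RNA by RNA-seq and DNA methylation by MethylC-seq, a bisulfite method that reads single cytosines, in the prefrontal cortex of females aged 14 weeks. The mice were crosses of C57BL6J and Spretus, a strain label read here as mother then father, and all carried a mutation of the noncoding RNA gene Xist on the maternal allele. There was no wild-type group, so the comparison was between the paternal Spretus allele, with intact Xist, and the maternal C57 allele, with mutated Xist, inside the same tissue. The cross was made in 1 direction, so strain, parent of origin and the Xist mutation cannot be told apart as sources of a difference between the alleles. Each assay had 2 libraries. The tissue was pooled from animals of different litters per the labels' protocols, and the MethylC-seq libraries were separate amplifications of the same converted DNA. Nothing in the labels says that the RNA libraries came from different pools, so the spread behind the p-values is that of these libraries alone and may be technical.

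In female mammals Xist RNA coats the X chromosome it is made from, and most genes of that chromosome then stop being transcribed. CpG islands at the starts of silenced genes gain DNA methylation, which helps to hold the silent state. In a brain where either X can be silenced, a female is a mosaic of cells that use different X chromosomes, and X-linked disorders of brain development often differ between the sexes. A small number of genes escape silencing and are read from both X chromosomes.

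The labels were checked with Xist itself. Library 1 gave it 2158 Spretus and 31 C57 reads, and library 2 gave 795 Spretus and 9 C57 reads. In all, 4768237 reads of library 1 and 1291903 of library 2 were assigned to an allele. Autosomal reads were 47.9% and 48.0% Spretus in libraries 1 and 2, and X-linked reads 3.38% and 3.65%. These X-linked values include Xist, which supplied 2158 of 3471 Spretus X-linked reads in library 1 and 795 of 1161 in library 2. The 8 genes supplied 4.46% and 4.65% of the X-linked reads. Markers of neurons were present. The pan-neuronal list had a median FPKM (fragments per kilobase of transcript, scaled to library size) of 455 and 107 in libraries 1 and 2. Of its 4 genes, 4 were at or above 1 in each library. The excitatory neuron list had medians of 22.5 and 5.89 FPKM. Blood markers were high as well, with medians of 415 and 33.5 FPKM. The choroid plexus and cerebellum lists had no gene at 1 FPKM in both libraries. Their median FPKM in libraries 1 and 2 was 0.796 and 0.530 for choroid plexus, and 1.30 and 0.316 for cerebellum.

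All 8 genes were read almost entirely from the C57 allele. Summed over the genes, 23 Spretus and 4560 C57 reads were found in library 1, and 4 Spretus and 1474 C57 reads in library 2. The Spretus share was therefore 0.502% (exact Clopper-Pearson 95% interval 0.318 to 0.752%) in library 1 and 0.271% (0.0738 to 0.691%) in library 2, or 0.386% ± 0.163 (SD, n = 2). The interval in summed reads was 0.294 to 0.647%. These intervals cover counting error only, since reads without molecular identifiers are not independent molecules. Huwe1 alone gave 16 of the 27 Spretus reads. The other 7 genes, a split chosen after the values were seen, held 11 Spretus reads of 4433, a share of 0.248% (0.124 to 0.444%).

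Tested with edgeR (quasi-likelihood, Benjamini-Hochberg over 11981 genes), 8 of 8 members were called toward C57, with adjusted p between 8.38e-08 and 2.69e-06. This test called 6.23% of all genes tested and 99.2% of 397 X-linked genes toward C57. With the library as a block, 1707 genes were called toward C57 in place of 746, while the X-linked count was 394 in both fits. The count for the members is thus near that of their chromosome and says nothing particular to them.

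No member had Spretus reads at a lower limit above 2% in each library, a level that 3.80% of the 316 measured X-linked genes reached. Xist, mutated on the C57 allele, was counted among these measured genes and reached this level. A lower limit above 0.1% in summed reads was reached by Huwe1 and Ogt, 2 of 8 members, and by 17.4% of the measured X-linked genes. A gene counted as measured when each library gave it 20 or more allele-assigned reads, which all 8 members had. All 8 stood below 1% in summed reads, against 270 of 308 other measured X-linked genes (87.7%). Pooled over the 296 others that did not reach the 2% limit, the share was 0.398% (0.362 to 0.437%), beside 0.445% for the members. The median share was 0.229% among the members and 0% among the others, with depths of 512 and 276.5 reads at the median gene. No Spretus read was found for 2 of 8 members and for 157 of 308 others (51.0%). The part of depth in this count was not tested.

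**Figure D1:**
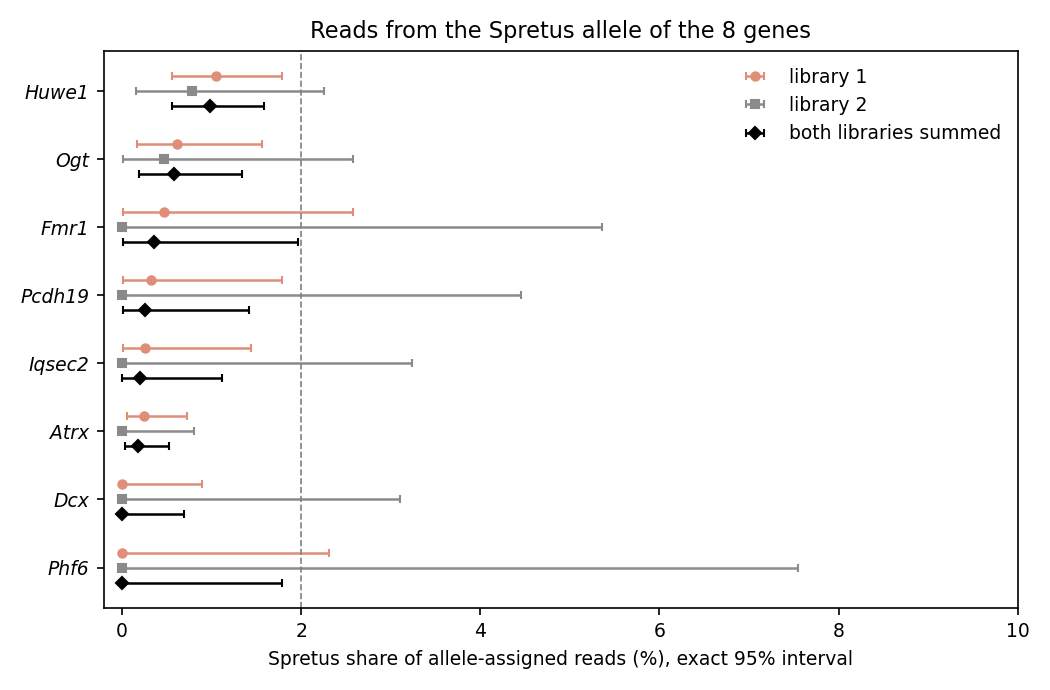
Share of allele-assigned reads from the Spretus allele (x axis, %) for each gene, with exact 95% intervals, in library 1, library 2 and both libraries summed. The dashed line marks 2%. The summed values run from 0% for Dcx and Phf6 to 0.983% for Huwe1, and all summed intervals end below 2%.

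Atrx encodes a chromatin remodeller that helps to place the histone variant H3.3 in heterochromatin. It lies at X 105797615 to 105929403 on the minus strand (ENSMUSG00000031229.15, mm10) and had 3 Spretus against 1208 C57 reads in library 1, and 0 against 455 in library 2. With 1666 reads it was the deepest member, and its share of 0.180% had an upper limit of 0.525%. In edgeR's quasi-likelihood test its log2 ratio was -9.06 (SE 0.48, adjusted p = 1.16e-07, Benjamini-Hochberg). Library 2 alone, with no Spretus read, gave a fitted ratio of -11.78, which is no bound and has no test.

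Huwe1 encodes a large ubiquitin ligase of the HECT class that marks proteins for degradation. At X 151800807 to 151935417 on the plus strand (ENSMUSG00000025261.16) it had 13 Spretus against 1230 C57 reads in library 1, and 3 against 382 in library 2. The share was 1.05% and 0.779%, or 0.913% ± 0.189 (SD, n = 2), and 0.983% (0.563 to 1.59%) in summed reads. Spretus reads were thus seen in each library. Its log2 ratio was -6.60 (SE 0.31, adjusted p = 8.95e-08) in edgeR's quasi-likelihood test. The opposite kind of read, C57 reads of Xist, made up 1.42% of Xist reads in library 1 and 1.12% in library 2, a level above the Huwe1 share in each library. Other measured X-linked genes that did not reach the 2% limit, 296 in all, pooled at 0.430% in library 1 and 0.296% in library 2. The Huwe1 share was higher in each library, though these genes were selected by a low share. Its interval lay above the pooled value in library 1 (0.558 to 1.78%) and included it in library 2 (0.161 to 2.26%). The part of wrongly assigned reads in any of these values was not tested.

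Ogt encodes the enzyme that attaches N-acetylglucosamine to nuclear and cytosolic proteins. It lies at X 101640060 to 101684351 on the plus strand (ENSMUSG00000034160.12). It was the only member besides Huwe1 with a Spretus read in each library, with 4 Spretus against 649 C57 reads in library 1 and 1 against 213 in library 2. Its share was 0.540% ± 0.103 (SD, n = 2), with an interval of 0.188 to 1.34% in summed reads. Its log2 ratio was -7.33 (SE 0.33, adjusted p = 8.38e-08) in edgeR's quasi-likelihood test.

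Phf6 encodes a zinc finger protein of the nucleus and nucleolus. At X 52912266 to 52956943 (ENSMUSG00000025626.15) it had 0 Spretus against 158 C57 reads in library 1, and 0 against 47 in library 2. By the floor of 3 reads, a count of 0 in 205 reads allows a share of up to 1.46%. The exact interval, used for members with Spretus reads, ends at 1.78%. With 3 reads as the floor over both libraries, Spretus was at least 68.3-fold lower than C57. It was the least covered member, and its limit lies above the summed share of Huwe1.

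Fmr1 encodes an RNA-binding protein that restrains translation at synapses, and loss of its human counterpart through promoter methylation causes fragile X syndrome. At X 68678541 to 68717963 on the plus strand (ENSMUSG00000000838.16) it had 1 Spretus against 213 C57 reads in library 1, and 0 against 67 in library 2. Its share of 0.356% had an interval of 0.00901 to 1.97%, the highest upper limit of the 8 genes. The single Spretus read came from the deeper library.

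Dcx encodes doublecortin, a microtubule-binding protein of migrating neurons. At X 143855842 to 143933311 on the minus strand (ENSMUSG00000031285.13) it had 0 Spretus against 410 C57 reads in library 1, and 0 against 117 in library 2. This allows a share of up to 0.569%, and Spretus was at least 176-fold lower than C57 against a floor of 3 reads over both libraries. The exact interval of the Dcx share ends at 0.698%.

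Iqsec2 encodes an exchange factor for Arf GTPases at excitatory synapses. It lies at X 152144268 to 152225236 on the plus strand (ENSMUSG00000041115.15), and had 1 Spretus against 384 C57 reads in library 1, and 0 against 112 in library 2, a share of 0.201% (0.00509 to 1.12%). Pcdh19 encodes a protocadherin of cell adhesion. It lies at X 133582860 to 133688987 on the minus strand (ENSMUSG00000051323.15), and had 1 Spretus against 308 C57 reads in library 1, and 0 against 81 in library 2, a share of 0.256% (0.00649 to 1.42%). Neither gene had a Spretus read in the shallower library.

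Of 11 other genes that overlapped a member or lay within 2 kb of it in the tables, Gm14853 inside Atrx had the most allele-assigned reads, 4 in all, and the 11 together had 9. None of these 9 reads was Spretus. Reads shared between a member and an overlapping gene were not measured. Gm22435, a gene inside Fmr1, was listed at 70.7 FPKM in library 1 and at 0 in library 2 with no allele-assigned read, and Gm23656, inside Atrx, at 0 and 53.2 FPKM.

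Of the 15 measured X-linked genes next to the members, at 7.784 to 3117 kb from them, 1 had Spretus reads above the 2% limit. This was Kdm5c, a histone demethylase gene known to escape silencing, which lies 7.784 kb beyond the end of Iqsec2. In summed reads Iqsec2 had 1 Spretus and 496 C57 reads, and Kdm5c had 162 Spretus and 448 C57 reads. The shares of 0.201% (0.00509 to 1.12%) in Iqsec2 and 26.6% (23.1 to 30.3%) in Kdm5c did not overlap in their intervals. Smc1a, on the other side of Iqsec2 and also next to Huwe1, had 0 Spretus and 483 C57 reads. Neither Iqsec2 nor Kdm5c had a listed methylation region within 2 kb of a gene end.

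Near 6 of the 8 genes, the authors listed regions where DNA methylation differed between the alleles. The authors' list of regions held 594 X-linked regions with levels, each given as a fraction of methylated cytosine on each allele. The sources used here give neither the cytosine context nor the coverage behind a level, and the depth is therefore unknown. Within 2 kb of either gene end, 6 members had at least 1 region, against 60.1% of the 316 measured X-linked genes and 184 of the 308 other than the members (59.7%). A share of 6 in 8 is near this background. The members' 8 regions were all higher on Spretus, as were 228 of the 232 regions near the other genes. Their Spretus levels ran from 0.587 to 0.803 with a median of 0.648, and their C57 levels from 0 to 0.0294 with a median of 0.00962. Near the other genes the median levels were 0.699 on Spretus and 0.00759 on C57. The median length was 936.5 bp near the members and 492.5 bp near the others.

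Where the strand was known, the members' regions within 2 kb of a gene end were all near the start. Of 7 members whose strand could be read from RefSeq, 5 had a region within 2 kb of the start and 0 within 2 kb of the end. Among the 247 other measured X-linked genes with a strand, 152 (61.5%) had a region at the start and 9 (3.64%) at the end.

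**Figure D2:**
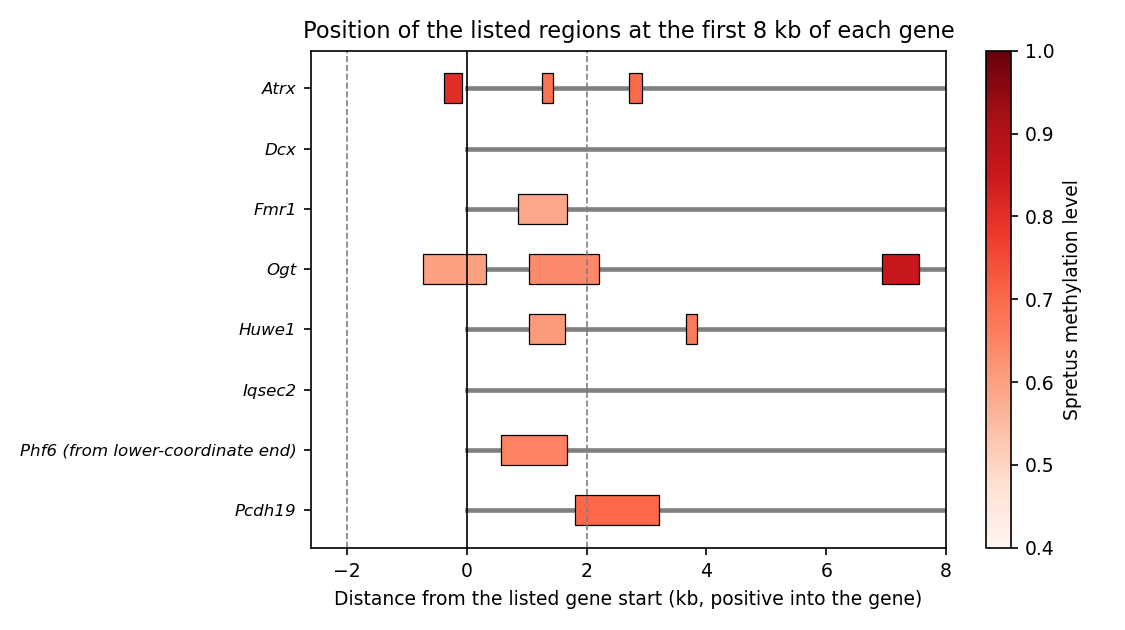
Position of each listed region (boxes) relative to the start of the gene as listed (x axis, kb, positive into the gene), coloured by the Spretus methylation level. For Phf6 the lower-coordinate end is at 0. Dashed lines mark 2 kb on either side. Dcx and Iqsec2 have no box, and the boxes of Atrx and Ogt are the ones that reach upstream of a start.

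Ogt had the region that covers a start. Region chrX:101639320-101640374 spanned it with levels of 0.602 on Spretus and 0 on C57, and region chrX:101641098-101642269 followed with 0.642 on Spretus and 0.00844 on C57. Atrx had a region just upstream, chrX:105929481-105929790, with 0.803 on Spretus and 0.0294 on C57, the highest Spretus level of the 8 regions. A second Atrx region, chrX:105927969-105928151, stood at 0.683 on Spretus and 0 on C57. These coordinates are given as in the authors' list, in mm10.

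The other members with a region had it inside the gene as listed. Fmr1 had chrX:68679400-68680219 from 859 bp into the gene, at 0.587 on Spretus and 0.0108 on C57. Phf6 had chrX:52912836-52913939, at 0.653 on Spretus and 0.0122 on C57, from 570 bp above its lower-coordinate end, and its strand was not read here. Huwe1 had chrX:151801846-151802442 from 1039 bp inside the listed start, at 0.610 on Spretus and 0 on C57, which is 840 bp upstream of the start in the RefSeq promoter table. Pcdh19 had chrX:133685772-133687182, at 0.701 on Spretus and 0.0266 on C57, from 1805 bp into the gene. The Pcdh19 region is also within 2 kb of an end of Gm26851, and the Fmr1 region within 2 kb of an end of Fmr1os and Gm27838, so these regions cannot be assigned to the members alone.

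Further inside the genes as listed lay 3 more regions, all higher on Spretus. Ogt had chrX:101646990-101647610, which begins 6930 bp into the gene, at 0.855 on Spretus and 0.315 on C57. It was the region with the highest level on each allele among the 11 at or inside the members. Atrx had chrX:105926477-105926689, at 0.698 on Spretus and 0.138 on C57. Huwe1 had chrX:151804471-151804642, at 0.670 on Spretus and 0 on C57. This Huwe1 region begins 3664 bp from the listed start but 1189 bp from the start in the RefSeq promoter table. Dcx and Iqsec2 had no listed region inside the gene or within 5 kb of it. The list gives no level for loci it leaves out.

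**Figure D3:**
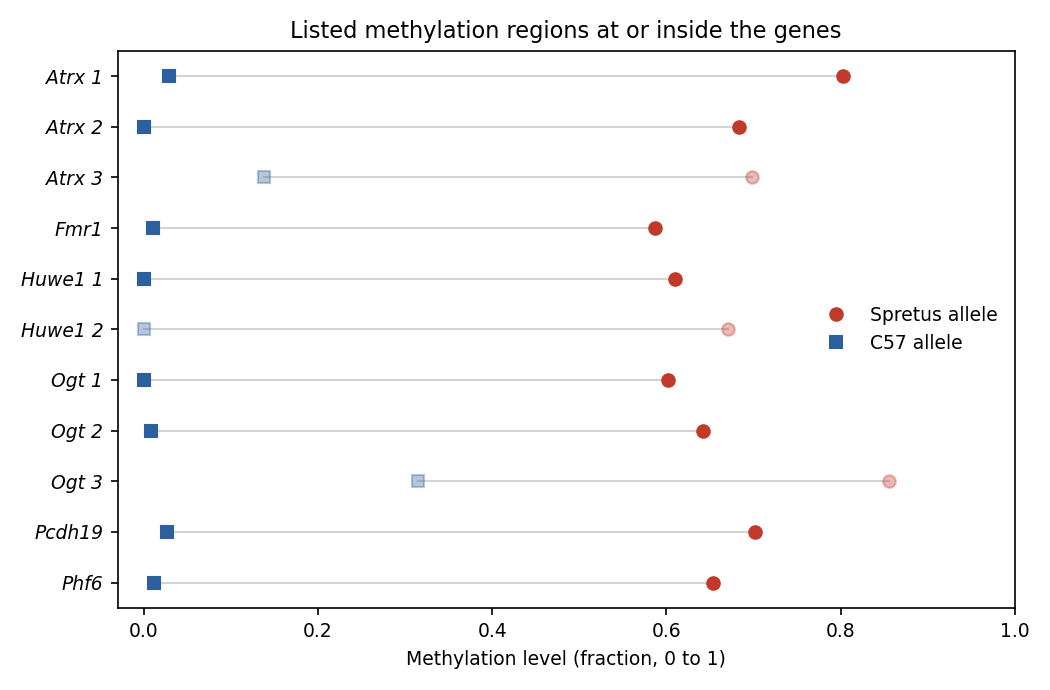
Methylation level (x axis, fraction) of the Spretus allele (circles) and the C57 allele (squares) in each region at or inside a member, numbered from the gene start inward where a gene has several. Pale symbols are regions more than 2 kb from a gene end as listed. Spretus levels run from 0.587 in Fmr1 to 0.855 in the inner Ogt region, and each lies above its C57 level.

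The bases in front of these starts differed widely in CG dinucleotides, the main sites of DNA methylation. In the 250 bases before the RefSeq start (GRCm38.p6, the assembly of mm10), counting CG, which reads the same on both strands, the 7 members found in the RefSeq table held between 3 and 34. At least 1 CG stood in 92.1% of all 32851 such windows, with a median of 6, and the 247 other measured X-linked genes had a median of 12. The windows below are shown because they set the gene with a region over its whole window, Ogt, and the gene with a region over 142 of its bases, Atrx, beside the genes with no listed region, Dcx and Iqsec2. Each is printed 5′ to 3′ on the strand of the gene, with CG in capitals.
Ogt, chrX:101639801-101640050, plus strand: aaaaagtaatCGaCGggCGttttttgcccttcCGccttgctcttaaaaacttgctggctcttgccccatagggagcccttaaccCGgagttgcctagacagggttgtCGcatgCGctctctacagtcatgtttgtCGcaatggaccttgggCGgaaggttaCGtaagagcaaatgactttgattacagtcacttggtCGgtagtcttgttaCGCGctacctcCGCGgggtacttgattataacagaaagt
Atrx, chrX:105929373-105929622, minus strand: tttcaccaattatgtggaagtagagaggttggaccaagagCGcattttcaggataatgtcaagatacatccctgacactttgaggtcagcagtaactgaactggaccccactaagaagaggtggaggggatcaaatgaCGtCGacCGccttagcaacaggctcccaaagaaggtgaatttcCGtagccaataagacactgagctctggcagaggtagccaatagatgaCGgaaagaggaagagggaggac
Dcx, chrX:143933220-143933469, minus strand: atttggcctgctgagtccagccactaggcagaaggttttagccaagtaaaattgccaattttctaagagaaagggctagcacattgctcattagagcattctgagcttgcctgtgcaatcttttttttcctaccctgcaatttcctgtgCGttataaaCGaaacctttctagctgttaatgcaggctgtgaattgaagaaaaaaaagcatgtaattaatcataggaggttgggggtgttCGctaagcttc
Iqsec2, chrX:152144018-152144267, plus strand: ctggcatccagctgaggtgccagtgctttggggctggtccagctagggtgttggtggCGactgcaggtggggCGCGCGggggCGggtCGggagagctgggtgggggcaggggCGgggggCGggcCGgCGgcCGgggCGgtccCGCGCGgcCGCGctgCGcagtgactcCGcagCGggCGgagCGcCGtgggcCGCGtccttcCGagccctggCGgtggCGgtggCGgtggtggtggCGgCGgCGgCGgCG

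Dcx had the fewest CG of the members, 3, and Iqsec2 the most, 34, more than 96.5% of all windows. Ogt held 15 and Atrx 6. Fmr1 held 21, Huwe1 23 and Pcdh19 16, with no base of a listed region inside their windows. Of the other measured X-linked genes with at most 3 CG, 5 of 18 had a region within 2 kb of a gene end (27.8%), and of those with at least 34 CG, 3 of 5 had one. At or above the median of 12 CG it was 89 of 134 (66.4%), and below it 65 of 113 (57.5%). The members without a listed region thus lay at opposite ends of the range.

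Members with and without a region overlapped in their Spretus shares. The 6 genes with a region had summed shares from 0% in Phf6 to 0.983% in Huwe1. The genes without one had 0% (Dcx, up to 0.569% by the floor of 3 reads and 0.698% by the exact interval) and 0.201% (Iqsec2, 0.00509 to 1.12%). Among other measured X-linked genes, the median share was 0.0962% for 184 genes with a region and 0% for 124 without.

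Expression of the 8 genes spanned 33.3-fold in library 1 and 29.8-fold in library 2, on FPKM for both alleles together. In these bulk samples, fewer cells of a type and less RNA per cell cannot be told apart. The median was 26.3 FPKM in library 1 and 4.08 in library 2 for the members, against 8.43 and 1.5 for the 510 X-linked genes with at least 1 FPKM in either library. Without that filter the median of the 2607 X-linked identifiers was 0 in each library. The list of other X-linked disorder genes described at the end had medians of 20.5 and 3.66 FPKM. FPKM values were higher in library 1 across the table, by a median of 5.43-fold over 15158 genes on the log2(FPKM + 0.1) scale, so levels are compared within a library. FPKM is by definition scaled to library size, yet this shift remained, and its cause was not tested. A cut at 1 FPKM was thus stricter in library 2.

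Huwe1 had the highest level of the members, at 224 FPKM in library 1 and 37.7 FPKM in library 2, ranks 5 and 8 among the 510 X-linked genes. Atrx (73.6 and 17.2 FPKM) and Ogt (70.2 and 12.6 FPKM) came next in each library. Iqsec2 stood at 34.5 and 4.21 FPKM and Fmr1 at 18.1 and 3.95 FPKM. Phf6 (9.0 and 1.27 FPKM), Dcx (7.12 and 1.29 FPKM) and Pcdh19 (6.72 and 1.68 FPKM) were lowest, and their order changed between the libraries. The order of these 3 genes was thus not beyond the spread between libraries, while the order of the other 5 was the same in each library.

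Dcx, also used as a marker of immature neurons, was the only gene of that marker list at 1 FPKM or more in both libraries. Of 6 listed genes 5 were found. Neurod1 stood at 3.57 and 0.916 FPKM, Sox4 at 5.01 and 0.818, Sox11 at 1.66 and 0.220, and Igfbpl1 at 0.0501 and 0. In library 1 Neurod1, Sox4 and Sox11 were thus above 1 FPKM as well. That Dcx alone passed rests on library 2, where FPKM values ran lower across the table. The summed level of the 5 genes was 17.4 FPKM in library 1 and 3.24 FPKM in library 2. In which cells Dcx was expressed was not measured.

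**Figure D4:**
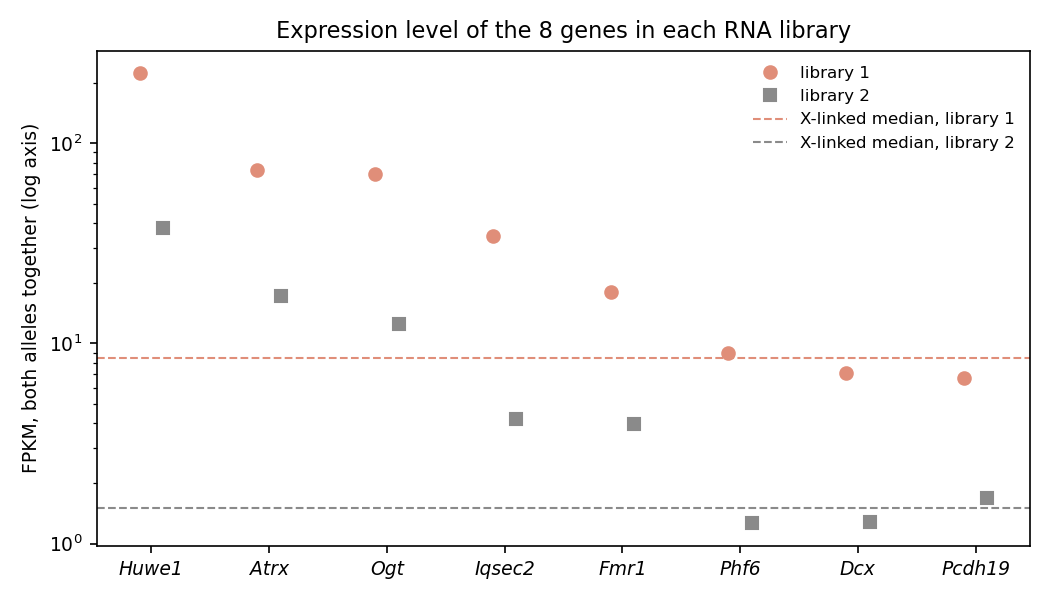
FPKM of each gene for both alleles together (y axis, log scale) in library 1 (circles) and library 2 (squares), ordered by mean. Dashed lines are the medians of 510 X-linked genes, 8.43 in library 1 and 1.5 in library 2. Huwe1 is highest in each library, at 224 and 37.7.

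Relative to the median shift between libraries, the members moved in different directions. The log2 ratio of library 1 over library 2, with the median over genes subtracted, ran from -0.50 for Pcdh19 and -0.35 for Atrx to 0.57 for Iqsec2. The interquartile range of all genes lay between -0.25 and 0.25. In allele-assigned CPM (counts scaled to library total), with the median over 11981 genes subtracted, the differences ran from -0.61 for Atrx to -0.09 for Pcdh19, with Iqsec2 at -0.24 and all 8 below 0. With log2(FPKM + 1), Atrx stood at 0.14 and Fmr1 at 0.05. Dcx and Pcdh19 were below 0 on each of these 3 scales, and the sign of the other 6 genes changed with the scale. Cell markers differed between the libraries as well, with median shifts of 0.72 for the oligodendrocyte list, 1.24 for blood and -0.23 for the pan-neuronal list on the FPKM scale, and their part in the members' values was not tested.

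Other X-linked genes known from disorders of brain development were also read mainly from C57. Of 70 such genes, 69 were found and 62 were measured. Their median Spretus share was 0.169%, 53 of 62 were below 1%, and 32 of 62 (51.6%) had a listed region within 2 kb of a gene end. A lower limit above 2% in each library was found for 4 of them, all higher than any member. Eif2s3x, which encodes a translation factor subunit, stood at 40.5% ± 1.97 (SD, n = 2), and Ddx3x, an RNA helicase gene, at 30.9% ± 2.05 (SD, n = 2). The histone demethylase genes followed, with 26.6% ± 0.0933 in Kdm5c and 23.4% ± 0.983 in Kdm6a (SD, n = 2 each). The most highly expressed of the 62 were Tspan7 (426 and 72.4 FPKM in libraries 1 and 2) and the synaptic vesicle gene Syp (379 and 63.4 FPKM), with summed shares of 2.41% in Tspan7 and 0.370% in Syp. For Tspan7 the share was 3.27% in library 1 and 0.546% in library 2, where 1 of 183 reads was Spretus. The lowest were Ofd1 (1.86 and 0.393 FPKM), Brwd3 (2.12 and 0.558 FPKM) and Alg13 (3.81 and 1.31 FPKM). Ofd1 had no Spretus read in 112 and Brwd3 none in 230, and Alg13 had 1 in 112. For Ofd1 and Brwd3 this allows up to 2.68% and 1.30% by the floor of 3 reads, and 3.24% and 1.59% by the exact interval.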

How the data were processed

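RNA-seq and MethylC-seq of mouse prefrontal cortex were analysed from the deposited tables. Named in the submitters' processing notes, with no role for each, are mm10 and the tools HTSeq 0.6.0, TopHat2 2.0.9, bedtools 2.2.4 and Cufflinks 2.1.1. Per the file headers, the authors deposited each gene's raw read counts by allele together with its FPKM, which does not separate the alleles. How reads were assigned to an allele, and whether strand was used, is not given in the sources used here. For regions, the authors deposited methylation levels, given by allele and as a fraction. Of 1613 regions, 13 had no level and were left out. Identifiers at several loci were used once, and listed gene starts were raised by 1.

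Counts were tested with edgeR 4.0.16 (glmQLFit, glmQLFTest, R 4.3.3), with TMM scaling per column and allele as the only term, for genes that had 10 or more allele-assigned reads in both libraries. Benjamini-Hochberg adjustment ran over all genes tested, at 0.05. The SE is the log2 ratio divided by the square root of F. The residual degrees of freedom were 2. The edgeR and DESeq2 fits were also run on simulated counts, drawn independently for each column. Shares, regions and FPKM levels had no such run. Both allele columns of a library were read from 1 RNA sample, which pairs them by design. Deviations of the Spretus and C57 columns had a correlation of 0.597 over 7565 autosomal genes. DESeq2 1.42.0 was an alternative. Shares have exact 95% intervals (SciPy 1.17.1), and for 0 reads the limit is 3 reads of the total. Sequences and strands are from RefSeq, and 7 of 8 members matched. The text names the 8 members, the genes overlapping or flanking them, and from the list of other disorder genes the 3 highest and 3 lowest by FPKM and those above the 2% limit. A gene that this rule names is not reported here. Flanking genes and the comparison by CG were added after the values were seen. Members, lists and tests were chosen with earlier results of these data known.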

Additional observations from a re-analysis of the deposited data

How the results depend on the processing

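All 8 genes were called toward C57 in each of the 6 fits run. With the library total shared by both alleles, the autosomal median log2 ratio was -0.11, against 0.02 with TMM. With the library as a replicate block the count was also 8, and the block changed no call of a member. Genes called toward C57 numbered 746 in all, 1707 with the block and 1206 with no filter on low counts, for which 22876 genes were tested. Over these fits to both libraries, log2 ratios ran from -11.06 (Dcx, a fitted value from 0 reads and no bound) to -6.50 (Huwe1), and the 40 alternative values with a test kept their direction and their side of the threshold. A fit on 1 library has no residual degrees of freedom and gave no test; for Atrx it gave -11.78 without library 1. The pooled Spretus share, 0.445% in summed reads, was 0.271% to 0.502% when a library was left out, and 0.248% without Huwe1, an alternative chosen after seeing the data. The number of members with a lower limit above 2% in each library was 0. It became 2 (Huwe1 and Ogt) when the limit was set at 0.1% in summed reads, which 55 of 316 measured X-linked genes reached (17.4%). The members' count remained 0 with 1% in each library, with Wilson intervals and in either library alone. The median FPKM was 4.08 to 26.3 when a library was left out. The members' median shift between libraries was -0.01 with log2(FPKM + 0.1), 0.19 with log2(FPKM + 1) and -0.30 in CPM. The cause was not tested. Members with a region numbered 6 of 8 at 2 kb (other measured X-linked genes 59.7%), 6 at 5 kb (others 63.6%), 4 at 1 kb (others 55.5%), and 5 where the region had to lie wholly within 2 kb (others 57.5%). Among regions of at least 200 bp with a level difference of at least 0.5 it was again 6 of 8, against 149 of 308 other genes (48.4%). Depth limits the share that can be excluded, most of all in library 2, where a count of 0 for Phf6 allows up to 6.38%. By the exact interval this limit for Phf6 is 7.55%.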
